A study of Mus musculus with 34 samples.

Results

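RNA from 7 mouse livers given a guide RNA against Tbx3 was compared directly with RNA from 6 livers given a guide RNA against Smyd2, 13 of the 34 livers in the series, 1 library per liver. The 13 libraries were taken by their labels, and no measured value was used to choose them. Every mouse was of the C57BL/6 strain and carried both a TetO-Cas9 transgene and Rosa-rtTA in the homozygous state, so that Cas9 could be switched on by the tetracycline transactivator. Each received an adeno-associated virus (AAV) with 1 guide and was then on a Western diet (WD), a diet rich in fat and sugar, for 3 months. The groups are called Tbx3 KO and Smyd2 KO after their labels. Control livers with guides against GFP (sgGFP, 4 livers) or LacZ (sgLacZ, 2 livers) had the same genotype and diet. They entered no test below, and their values are given to show on which side each group lay. The sources used here do not give age, sex, the place of each guide in its gene or the share of liver cells that were edited. The question was where livers with 2 different gene targets, kept alike in all else that the labels state, differed in their RNA.

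Tbx3 is a T-box transcription factor that mainly represses its targets, and T-box proteins bind a short DNA element with the core GGTGTG. In the mouse liver it is known from hepatoblast growth in the embryo and as a Wnt-responsive gene of hepatocytes near the central vein. Smyd2 is a lysine methyltransferase with histone and other protein substrates, p53 among them. Hepatocytes differ along the lobule. Periportal cells carry out urea synthesis and amino acid breakdown, and pericentral cells carry out glutamine synthesis and much of drug oxidation. Many liver genes of the mouse also differ by sex, under the control of growth hormone and STAT5.

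The authors deposited FPKM, reads per kilobase of transcript scaled to the size of the library. The low values implied a depth of 2110000 to 3130000 counted reads in Tbx3 KO libraries and 2430000 to 2670000 in Smyd2 KO libraries, which leaves low genes with wide errors. Of 35976 gene symbols, 11140 were at 0 in all 13 libraries and 17393 reached an FPKM of 1 in 5 libraries or more and were tested. The 510 genes with exactly 5 such libraries had a median mean FPKM of 1.053, and the 567 with exactly 4, which were not tested, had 0.841. The liver genes Alb, Ttr and Apoa1 were abundant in every library, with at least 37710, 8768 and 6407 FPKM. Ddx3y, a Y-linked gene, stood at 189 to 274 FPKM in all 13 livers.

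Replicate 7 of Tbx3 KO and replicate 6 of Smyd2 KO stood apart from the other 11 libraries. Across the tested genes, the highest Pearson correlation of each was with the other one (0.9590). For Tbx3 KO replicate 7 the median correlation was 0.9383 with its own group and 0.9521 with the other. For Smyd2 KO replicate 6 these were 0.9379 and 0.9333, so by its median it was nearer to its own group. In the 11 other libraries the best match was a library of the same group. Medians were less clear for Tbx3 KO replicates 4 and 6, at 0.9594 and 0.9577 with their own group and 0.9595 and 0.9628 with Smyd2 KO. Results are therefore given with all 13 libraries and again without Tbx3 KO replicate 7, and the counts also without both.

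The 2 targeted genes were read first. Tbx3 (chromosome 5, 119670669 to 119684724, plus strand; GRCm38, GENCODE M21) stood at 80.05, 103.5 and 248.5 FPKM (lowest, median and highest) in Tbx3 KO and at 41.6, 102.7 and 183 in Smyd2 KO. The groups overlapped over most of their range, and the controls spanned 45.9 to 147 FPKM. The log2 difference, Tbx3 KO minus Smyd2 KO, was 0.30 ± 0.32 (SE), with an exact two-sided permutation p of 0.444. Smyd2 (chromosome 1, 189880492 to 189922363, minus strand) stood at 97.6, 140.0 and 172.9 FPKM in Tbx3 KO and at 61.7, 91.7 and 121 in Smyd2 KO, against 81.6 to 147 in the controls. Its log2 difference was 0.59 ± 0.16, with an exact two-sided permutation p of 0.00699 (the smallest possible with 7 and 6 libraries is 0.000583). In the fit over all genes it did not pass (limma adjusted p = 0.166). Small insertions and deletions made by Cas9 need not alter the amount of an mRNA, so these levels do not measure editing. Exons of Tbx3os1 lie opposite Tbx3 and exons of Gm37422 opposite Smyd2, and without a stated strand setting their reads cannot be told apart.

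Tbx3 KO livers held more RNA of the estrogen sulfotransferase Sult1e1, of the hepcidin paralog Hamp2 and of the growth factor binding protein Igfbp2 than Smyd2 KO livers, and less of the thyroxine carrier Serpina7, the tight junction protein Cldn2 and P450 genes such as Cyp2c38 and Cyp3a11. Over all genes, 52 of 17393 differed at an adjusted p under 0.05 (limma on log2(FPKM + 1), Benjamini-Hochberg over all genes tested), which is 0.299% of them. A total of 29 genes (0.167%) were higher in Tbx3 KO and 23 (0.132%) were lower, 17 and 19 of them by at least 2-fold. In 43 of the 52 every Tbx3 KO library lay on 1 side of every Smyd2 KO library, which was the case for 107 of all tested genes (0.615%). Without Tbx3 KO replicate 7, 242 genes passed (1.39%), 100 higher (0.575%) and 142 lower (0.816%), and they held all 52. That split moved with the scaling between libraries: 248 were higher and 104 lower after each library was divided by its median, and 105 and 99 after quantile normalization. The median SE of a log2 difference was 0.22 in both fits, and the median difference over all tested genes was -0.06 with and -0.09 without that library. Without both libraries that stood apart, an alternative added after the data were seen, 399 genes passed.

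**Figure D1:**
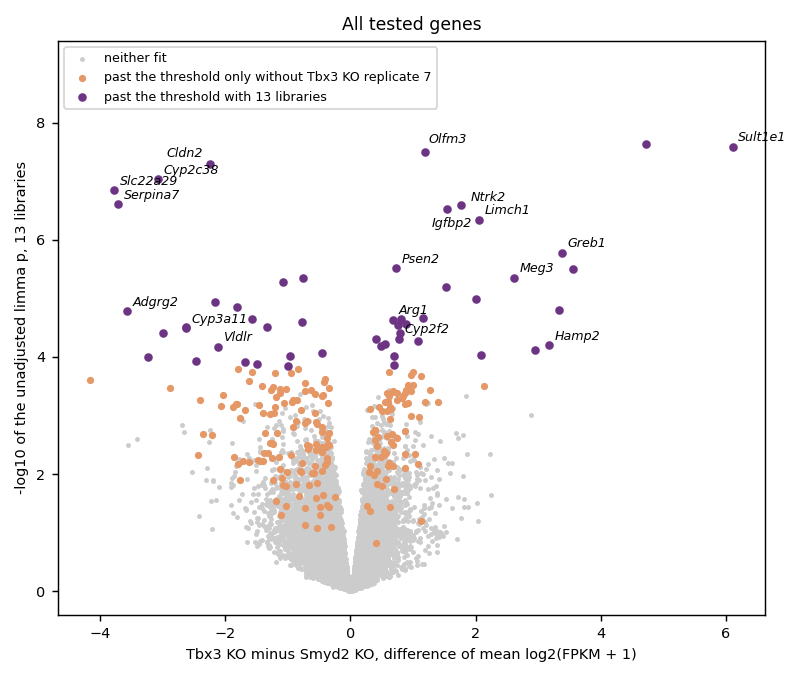
Difference of mean log2(FPKM + 1), Tbx3 KO minus Smyd2 KO (x axis), against -log10 of the unadjusted limma p with 13 libraries (y axis), 1 point per tested gene. Purple points are the 52 genes past the threshold, orange points are genes that passed only without Tbx3 KO replicate 7, and the gene with the largest difference, Sult1e1, lies at 6.11.

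The genes higher in Tbx3 KO were led by Sult1e1 (chromosome 5, 87575969 to 87591594, minus strand), which encodes the estrogen sulfotransferase that inactivates estrogens. It stood at 349, 2512 and 3703 FPKM in Tbx3 KO and at 8.17, 26.8 and 100.8 in Smyd2 KO. The groups did not overlap, and the 349 belonged to replicate 7, the other 6 Tbx3 KO livers being at 2072 or more. Controls ranged from 6.28 to 418, so 1 control liver reached the level of replicate 7. The log2 difference was 6.11 ± 0.57 (limma adjusted p = 0.000181) and 6.53 without replicate 7 (limma adjusted p = 1.21e-05). Hamp2 (chromosome 7, 30922372 to 30924681, minus strand), a paralog of the iron hormone hepcidin that is female-biased in mouse liver, stood at 390.6, 3451 and 8121 FPKM against 159, 368 and 591. Replicate 7 was again the lowest Tbx3 KO liver and the one that lay within the Smyd2 KO range, while the others stood at 1950 or more and the controls at 71.5 to 711. Its log2 difference was 3.17 ± 0.57 (limma adjusted p = 0.0283) and 3.67 without replicate 7 (limma adjusted p = 0.000227). Hamp, the hepcidin gene itself and close to Hamp2 in sequence, so that reads may be shared, stood at 533 to 3993 against 1018 to 4992 (log2 difference -0.60, limma adjusted p = 0.667).

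Promoters of Sult1e1, Hamp2, Olfm3 and Cldn2 are printed so that their start sites can be read beside their values. These genes were picked by no fixed rule from the 10 highest and 10 lowest differences, and promoters of the others are not printed. Each window runs from 250 bases before to 50 bases after the RefSeq start of the gene (GRCm38.p6), 5′ to 3′ on the strand of the gene. Capitals mark the T-box core GGTGTG on either strand or the STAT element TTCNNNGAA (its own reverse complement), and a window all in lower case holds neither.
Sult1e1 chr5:87591562-87591861 (minus strand): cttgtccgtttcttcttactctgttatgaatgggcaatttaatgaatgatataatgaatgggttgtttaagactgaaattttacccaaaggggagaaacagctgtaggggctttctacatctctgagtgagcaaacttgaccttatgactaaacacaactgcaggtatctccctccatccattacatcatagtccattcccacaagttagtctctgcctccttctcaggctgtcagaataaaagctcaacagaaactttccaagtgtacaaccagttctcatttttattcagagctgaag
Hamp2 chr7:30924132-30924431 (minus strand): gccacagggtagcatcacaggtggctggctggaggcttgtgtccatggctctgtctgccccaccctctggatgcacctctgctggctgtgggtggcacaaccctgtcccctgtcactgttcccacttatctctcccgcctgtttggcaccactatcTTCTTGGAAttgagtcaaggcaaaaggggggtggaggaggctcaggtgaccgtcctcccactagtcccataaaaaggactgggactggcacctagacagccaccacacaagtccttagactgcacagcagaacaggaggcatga
Olfm3 chr3:114903828-114904127 (plus strand): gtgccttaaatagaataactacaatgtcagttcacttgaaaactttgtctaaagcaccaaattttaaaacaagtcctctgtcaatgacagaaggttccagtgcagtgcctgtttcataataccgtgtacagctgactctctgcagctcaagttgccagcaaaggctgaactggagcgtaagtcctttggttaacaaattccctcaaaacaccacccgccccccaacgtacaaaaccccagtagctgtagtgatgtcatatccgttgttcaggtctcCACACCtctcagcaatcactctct
Cldn2 chrX:139800558-139800857 (plus strand): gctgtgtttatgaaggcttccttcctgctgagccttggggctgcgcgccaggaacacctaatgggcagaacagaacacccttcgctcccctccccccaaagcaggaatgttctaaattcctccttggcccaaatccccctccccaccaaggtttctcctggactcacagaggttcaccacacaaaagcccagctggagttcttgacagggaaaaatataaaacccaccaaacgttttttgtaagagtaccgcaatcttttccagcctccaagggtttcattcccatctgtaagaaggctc
Hamp2 holds the STAT element at base 157 of its window, and Olfm3 holds the T-box core in reverse at base 277. RefSeq gives Olfm3 a second start, whose window (chr3:115080715-115081014, plus strand) holds neither motif. Of 32851 promoters of this length, 6257 hold GGTGTG and 2726 (8.3%) hold TTCNNNGAA. Of the 20 genes with the 10 highest and the 10 lowest differences, 19 had promoters in the table, 30 in all, of which 4 (of Meg3, Olfm3 and Rcan2) held the T-box core and 1 (of Hamp2) the STAT element. These are matches of letters and not sites shown to be bound.

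Signalling and secreted proteins followed among the genes higher in Tbx3 KO. Igfbp2 (chromosome 1, 72824503 to 72852474, plus strand), a secreted binding protein of insulin-like growth factors, stood at 513.9, 562 and 784 FPKM in Tbx3 KO, 128, 232 and 291 in Smyd2 KO and 70.5 to 202 in controls. All 7 Tbx3 KO livers lay above all others, and the controls lay lower than most Smyd2 KO livers. The log2 difference was 1.54 ± 0.17 (limma adjusted p = 0.000581). Ntrk2 (chromosome 13, 58806569 to 59133970, plus strand), the receptor of brain-derived neurotrophic factor, stood at 206, 266 and 293 FPKM against 48.9, 74.8 and 121, with controls at 54.2 to 122. Replicate 7, at 266, was the median Tbx3 KO liver for this gene, and the log2 difference was 1.77 ± 0.20 (limma adjusted p = 0.000551). Olfm3 (chromosome 3, 114904078 to 115125722, plus strand), a secreted olfactomedin-domain protein, stood at 173, 222 and 248 FPKM against 73.8, 98.2 and 108. Its log2 difference was small, 1.19 ± 0.11, but its spread was narrow (limma adjusted p = 0.000181). Controls reached from 90.6 to 201.5 and so into the Tbx3 KO range.

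Greb1 (chromosome 12, 16670615 to 16800886, minus strand), known as a gene that estrogen receptor switches on, stood at 6.95, 26.1 and 40.3 FPKM in Tbx3 KO and 0, 1.09 and 3.15 in Smyd2 KO. The groups did not overlap, controls stood at 0 to 5.10, and the log2 difference was 3.37 ± 0.44 (limma adjusted p = 0.00264). Exons of Gm48140 lie opposite it. Meg3 (chromosome 12, 109541001 to 109571726, plus strand), an imprinted long noncoding RNA, stood at 3.93, 9.69 and 21.2 FPKM against 0.204, 0.599 and 1.68. All 7 Tbx3 KO livers were again above all Smyd2 KO livers and above the controls, which reached 2.98 (log2 difference 2.62 ± 0.37, limma adjusted p = 0.00516). The microRNA genes Mir770 and Mir1906-1 lie on its strand within its exons, and a table by gene symbol cannot separate them.

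Limch1 (chromosome 5, 66745827 to 67057158, plus strand), a protein that activates non-muscle myosin, showed another order of the 3 groups. It stood at 64.0, 109.9 and 203 FPKM in Tbx3 KO, at 14.3, 28.0 and 35.1 in Smyd2 KO and at 50.4 to 113 in controls. The control livers thus lay above every Smyd2 KO liver and within the Tbx3 KO range or just below it (log2 difference between knockouts 2.05 ± 0.24, limma adjusted p = 0.000792). Ybx2, an RNA-binding protein of germ cells, had a like order at low levels, 1.29 to 10.05 FPKM in Tbx3 KO, 0 to 1.39 in Smyd2 KO and 1.21 to 5.60 in controls. Dntt, the template-free DNA polymerase of developing lymphocytes, stood at 23.9 to 43.7 FPKM against 6.81 to 18.2, with controls from 7.17 to 38.3.

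**Figure D2:**
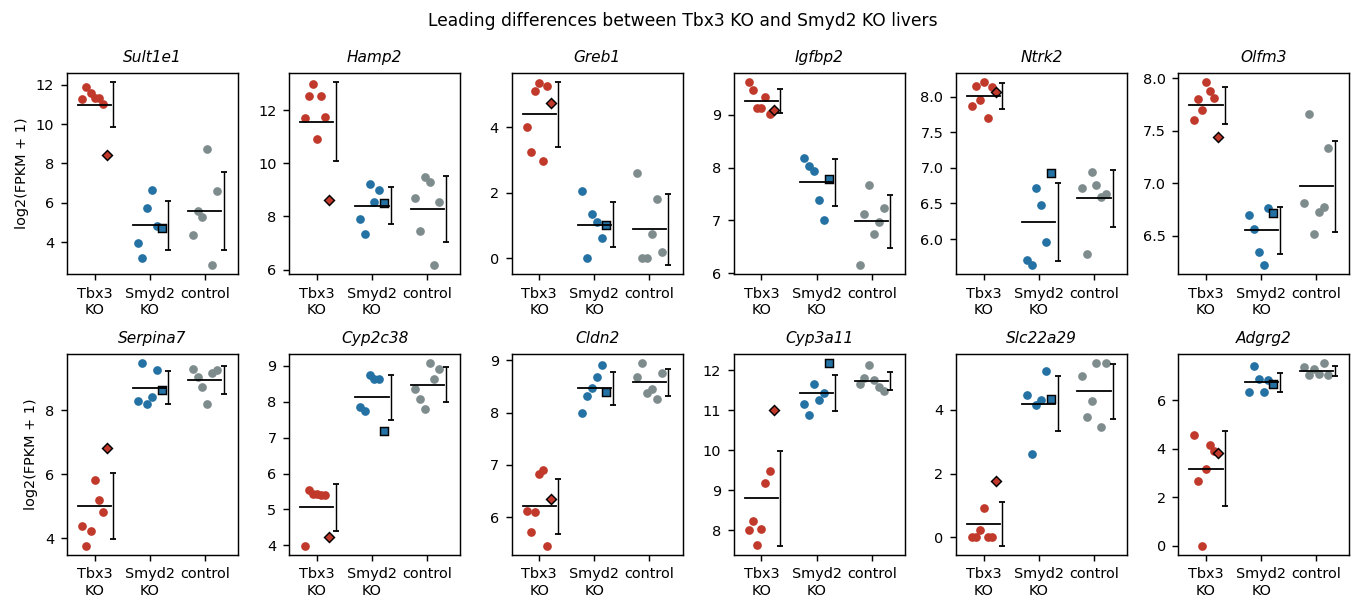
log2(FPKM + 1) of 12 leading genes (y axis), 1 point per liver, for Tbx3 KO (red), Smyd2 KO (blue) and control livers (grey), with the mean as a horizontal line and the SD as a bar. The black-edged diamond is Tbx3 KO replicate 7 and the black-edged square Smyd2 KO replicate 6, and for Sult1e1 and Hamp2 the diamond is the lowest Tbx3 KO liver, at 349 and 390.6 FPKM.

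Among the genes lower in Tbx3 KO were carriers and junction proteins of the hepatocyte. Serpina7 (chromosome X, 139079257 to 139085236, minus strand), the thyroxine-binding globulin of plasma, stood at 12.6, 27.4 and 112 FPKM in Tbx3 KO, at 294.5, 371 and 714 in Smyd2 KO and at 290.5 to 626 in controls. The groups did not overlap, and replicate 7 was the highest Tbx3 KO liver. The log2 difference was -3.71 ± 0.41 (limma adjusted p = 0.000551) and -4.02 without replicate 7 (limma adjusted p = 5.09e-05). Cldn2 (chromosome X, 139800828 to 139811386, plus strand), a claudin that forms cation- and water-permeable tight junctions, stood at 43.0, 68.6 and 118 FPKM against 255, 345 and 481.5. Controls lay at 304 to 491, within or just above the Smyd2 KO range, and the log2 difference was -2.25 ± 0.22 (limma adjusted p = 0.00022). Adgrg2 (chromosome X, 160390690 to 160498070, plus strand), an adhesion G protein-coupled receptor, stood at 0, 13.2 and 22.9 FPKM against 79.4, 108 and 170.1, with controls at 131 to 185. The Tbx3 KO liver at 0 was replicate 3, and the other 6 stood at 5.32 or more.

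Slc22a29 and Slc22a28, organic anion carriers of the Slc22a cluster on chromosome 19, were lower too. Slc22a29 (8160165 to 8218900, minus strand) had a median of 0 and a highest value of 2.37 FPKM, in replicate 7, among Tbx3 KO livers, against 5.09, 19.2 and 36.5 in Smyd2 KO and 10.01 to 43.2 in controls. Slc22a28 (8062209 to 8131982, minus strand) stood at 0.836, 1.88 and 7.41 FPKM against 8.56, 23.0 and 67.2. Here the controls, at 0.887 to 20.2, spread over the Tbx3 KO range and into that of Smyd2 KO. The log2 differences were -3.77 ± 0.40 for Slc22a29 (limma adjusted p = 0.000415) and -2.63 ± 0.45 for Slc22a28 (limma adjusted p = 0.0175). Members of this cluster are close in sequence, and how reads were divided between them is not given in the sources used here.

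Cytochromes P450 oxidize drugs, steroids and fatty acids. Of 72 tested genes with a P450 symbol 3 were lower in Tbx3 KO (Cyp2c38, Cyp2c67 and Cyp3a11), where 0.132% of all tested genes were lower. Of the 72, 1 was higher (Cyp2f2, described with the periportal genes), where 0.167% of all tested genes were higher. Without replicate 7, Cyp3a44 was lower and Cyp4a31 higher as well (log2 differences -2.45 and 0.98, limma adjusted p = 0.00535 and 0.0385). Cyp2c38 (chromosome 19, 39389556 to 39463075, minus strand) stood at 14.9, 41.3 and 45.7 FPKM against 143.5, 312 and 426, with controls at 220.5 to 539 (log2 difference -3.07 ± 0.32, limma adjusted p = 0.000319). Cyp2c67, of the same gene cluster, stood at 222.5, 269 and 415 FPKM against 474, 574 and 789. Neither gene's groups overlapped. Cyp3a11 (chromosome 5, 145854426 to 145879964, minus strand), the main drug-oxidizing P450 of its family in mouse liver, stood at 199.7, 299.5 and 2051 FPKM against 1883, 2601 and 4625. The 2051 was replicate 7, which lay in the Smyd2 KO range, while the other Tbx3 KO livers reached at most 714 and the controls stood at 2839 to 4470. With 13 libraries its log2 difference was -2.63 ± 0.45 (limma adjusted p = 0.0175), and without replicate 7 it was -2.996 (limma adjusted p = 0.000264). These P450 genes have near-identical neighbours and the same doubt on shared reads holds for them.

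The remaining genes of the 10 lowest differences were Rcan2, Vldlr and Kbtbd11. Rcan2 (chromosome 17, 43801351 to 44039516, plus strand), an inhibitor of calcineurin, stood at 2.69, 18.7 and 54.0 FPKM in Tbx3 KO against 67.1, 93.7 and 131 in Smyd2 KO. Vldlr (chromosome 19, 27216484 to 27254231, plus strand), the receptor of very low density lipoprotein, stood at 2.05, 4.07 and 8.53 FPKM against 8.74, 23.1 and 52.0, with controls at 34.4 to 48.8. The 8.74 was Smyd2 KO replicate 6, so the groups were apart by a narrow gap (log2 difference -2.12 ± 0.39, limma adjusted p = 0.0284). Kbtbd11, a kelch and BTB domain protein, stood at 3.85 to 10.9 FPKM against 15.3 to 50.6. Tdrp, a nuclear protein known from spermatogenesis, had a small difference with little spread, 295 to 399.7 against 489 to 739.8 FPKM (log2 difference -0.75 ± 0.11, limma adjusted p = 0.00516).

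Of 25 periportal genes, all tested, 3 were higher in Tbx3 KO and none lower with 13 libraries, where 0.167% of all tested genes were higher, and 8 were higher and none lower without replicate 7, where 0.575% were. The median log2 difference of the list was 0.40, against -0.06 over all tested genes, and 20 of the 25 differences were above 0, as were 41.1% of those over all tested genes. Arg1 (chromosome 10, 24915221 to 24927484, minus strand), the arginase that releases urea, stood at 2094, 2346 and 2695 FPKM in Tbx3 KO and at 1239, 1429 and 1887 in Smyd2 KO. The groups did not overlap and the controls, at 1251 to 1918, spanned about the same range as Smyd2 KO (log2 difference 0.68 ± 0.11, limma adjusted p = 0.0154). Cyp2f2 (chromosome 7, 27119909 to 27133660, plus strand), a periportal P450, stood at 776, 982 and 1269 FPKM against 434.5, 600.5 and 765.5, with controls at 229.5 to 595. Ftcd (chromosome 10, 76575648 to 76590338, plus strand), which acts in histidine breakdown and folate metabolism, stood at 1037, 1683 and 1769 FPKM against 809, 966.5 and 1128. The 1037 was replicate 7, and the other 6 Tbx3 KO livers were at 1464 or more.

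Other urea cycle and histidine genes passed in the fit without replicate 7 and not with 13 libraries. Cps1, the first enzyme of the urea cycle, stood at 5073, 5223 and 6021 FPKM against 2259, 3667 and 4581 without overlap, with a limma adjusted p of 0.0804 with 13 libraries and 0.0478 without replicate 7. Ass1, which joins citrulline and aspartate, stood at 1791 to 3639 against 969.7 to 1940.0 FPKM. Uroc1 and Hal, enzymes of histidine breakdown, had log2 differences of 0.70 and 1.24 without replicate 7, and Hsd17b6, a steroid dehydrogenase, had 1.23. For Cps1, Uroc1, Hal and Hsd17b6 replicate 7 was the lowest Tbx3 KO liver. Gldc and Bhmt, which act in glycine breakdown and in the remethylation of homocysteine, belong to the list of 27 amino acid and one-carbon genes, of which 26 were tested. Gldc was the member higher with 13 libraries (91.1 to 163 against 54.7 to 86.7 FPKM, limma adjusted p = 0.0169), and Bhmt joined it without replicate 7 (log2 difference 1.12, limma adjusted p = 0.00602). No member of that list was lower, and its median log2 difference was 0.23. Among all tested genes 0.167% were higher with 13 libraries and 0.575% without replicate 7.

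Of 25 pericentral genes none passed with 13 libraries, and without replicate 7 only Slc13a3, a dicarboxylate carrier, did (8.08 to 12.4 FPKM in the remaining Tbx3 KO livers against 17.5 to 32.1, limma adjusted p = 0.00412). The median log2 difference of the list was -0.24 with and -0.07 without replicate 7. Glul, glutamine synthetase of the innermost pericentral cells, stood at 224.5 FPKM in Tbx3 KO replicate 7 and 248 in Smyd2 KO replicate 6, while the other Tbx3 KO livers stood at 481.5 to 754 and the other Smyd2 KO livers at 684 to 789. Cyp2e1, the ethanol-oxidizing P450, likewise stood at 1374 and 1554 FPKM in those 2 livers, at 3386 to 4576 in the other Tbx3 KO livers and at 4369 to 6561 in the other Smyd2 KO livers. The third sgGFP control stood at 305 and 1737 FPKM for these genes, below the other controls. Axin2, a Wnt target, did not separate them, with 44.3 and 35.6 FPKM within the range of the other livers, 26.3 to 90.6.

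**Figure D3:**
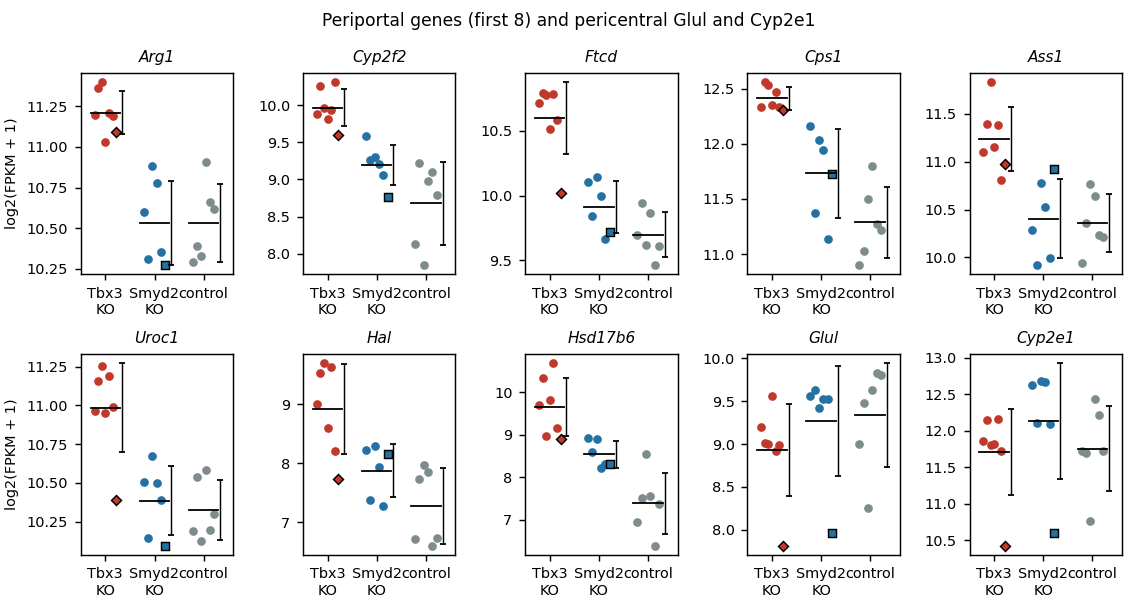
log2(FPKM + 1) of 8 periportal genes and of the pericentral genes Glul and Cyp2e1 (y axis), 1 point per liver, with the group mean as a line and the SD as a bar; the black-edged diamond is Tbx3 KO replicate 7 and the black-edged square Smyd2 KO replicate 6. Tbx3 KO livers lie above Smyd2 KO livers for Arg1, Cyp2f2 and Cps1, and the diamond and the square are the lowest points of their groups for Glul and Cyp2e1.

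Sex-biased genes differed in both directions. Of 30 female-biased genes 18 were tested. Of these, 2 were higher in Tbx3 KO, Sult1e1 and Hamp2, where 0.167% of all tested genes were higher, and no member was lower. Without replicate 7, Cyp3a44 and Slc22a27, which are also female-biased, were lower, at 0 to 3.47 against 5.48 to 12.9 FPKM and at 0 to 4.54 against 5.38 to 57.9. The median log2 difference of the list was -0.19. Of 30 male-biased genes 27 were tested, and none passed with 13 libraries. Without replicate 7 the complement gene C6, Serpina1e, a serine protease inhibitor with near-identical copies, and Selenbp2, a selenium-binding protein, were lower (log2 differences -1.71, -2.29 and -2.21). Serpina1e stood at 23.6 to 47.1 FPKM in the remaining Tbx3 KO livers against 69.9 to 396, and Selenbp2 at 5.95 to 23.6 against 11.6 to 127. Their controls, at 16.8 to 72.6 and 5.79 to 44.0, overlapped the remaining Tbx3 KO livers and the low end of Smyd2 KO. C6 controls stood at 265 to 853 FPKM, with Smyd2 KO at 354 to 934. Replicate 7, at 628, 306 and 82.2, lay in the Smyd2 KO range for C6, Serpina1e and Selenbp2. The median of the male-biased list was -0.56, and 3 of its 27 differences were above 0, against the 41.1% over all tested genes. The groups overlapped in list level (defined below), at -0.81 to 0.32 in Tbx3 KO and -0.86 to 1.52 in Smyd2 KO. Smyd2 KO replicates 5 and 6 lay low, at -0.50 and -0.86. Some members of the list are major urinary proteins, which the next list holds as well.

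The major urinary proteins, pheromone carriers made by male mouse liver and near-identical in sequence, had the widest range of list levels among the 45 lists. None of 18 tested members of the list passed in either fit, and their median log2 difference was -1.21 with and -0.88 without replicate 7. The list level, the mean over its genes of log2(FPKM + 1) after subtracting each gene's mean in these 13 libraries, ran from -2.30 to 0.53 in Tbx3 KO and from -2.09 to 2.91 in Smyd2 KO. Both lowest values were those of the 2 libraries that stood apart. Mup17 stood at 8.405, 38.6 and 249 FPKM against 46.7, 692 and 3664, and the controls ran from 23.4 to 933. Among the pseudogenes of the family, which are not in the list and were added after their values were seen, Mup-ps12 was lower in Tbx3 KO, at 21.1, 59.5 and 84.8 FPKM against 109, 265 and 349, with controls at 76.6 to 278 (log2 difference -2.17 ± 0.33, limma adjusted p = 0.0105). Without replicate 7, Mup-ps16 was lower as well (log2 difference -1.66, limma adjusted p = 0.0194). Of 16 genes of the growth hormone and STAT5 axis only Igfbp2 passed, where 0.167% of all tested genes were higher with 13 libraries. Socs2, a direct STAT5 target, stood at 43.5 to 102 against 55.8 to 192 FPKM (limma adjusted p = 0.554), and Igf1 at 3784 to 5939 against 3993 to 7004 (limma adjusted p = 0.757).

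Lipid genes differed in few places. Plin4, a protein of the lipid droplet coat, was the 1 of 22 lipid droplet genes that passed. It was lower in Tbx3 KO, where 0.132% of all tested genes were lower with 13 libraries. Plin4 stood at 96.9, 163 and 219 FPKM against 228, 328 and 465.9, with controls at 294 to 591. Exons of Hdgfl2 lie opposite it. Cidec, which fuses droplets, stood at 57.5 to 338 against 185 to 476 FPKM (limma adjusted p = 0.251), and Pparg, a nuclear receptor of lipid storage genes, passed without replicate 7 and not with it (log2 difference -1.16, limma adjusted p = 0.0129). Of 20 fatty acid synthesis genes none passed with 13 libraries. Of their differences 18 were above 0, as were 41.1% of those over all tested genes. The median was 0.33, against -0.06 over all tested genes. The groups overlapped in list level, at -0.18 to 0.81 in Tbx3 KO and -0.64 to 0.16 in Smyd2 KO. The 0.81 was Tbx3 KO replicate 6. Acss2, which makes acetyl-CoA from acetate, passed without replicate 7 (491 to 865 against 227 to 603 FPKM, limma adjusted p = 0.0306). Of 25 cholesterol synthesis genes none passed with 13 libraries, and Fdps and Insig1 were higher without replicate 7, with log2 differences of 1.27 and 0.74 and a list median of 0.29. Vldlr was the 1 of 28 apolipoprotein and lipoprotein genes that passed with 13 libraries, where 0.132% of all tested genes were lower. Triglyceride synthesis had no member past the threshold in either fit (12 tested). Fatty acid oxidation and bile acid lists had none with 13 libraries (27 and 26 tested).

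In the insulin and glucose list none of 23 genes passed with 13 libraries and 4 were higher without replicate 7. Among these were the fructokinase Khk and the transcriptional coactivator Ppargc1a. Khk stood at 2387 to 2834 FPKM in the remaining Tbx3 KO livers against 1308 to 2297 in Smyd2 KO, and replicate 7 lay at 1496, in the Smyd2 KO range. Ppargc1a stood at 323 to 472 FPKM in the remaining Tbx3 KO livers against 130.2 to 281. Of 28 xenobiotic genes 1 was lower, Cyp3a11, and 1 higher, Ces1g, a carboxylesterase (235 to 339 against 157 to 214 FPKM). Its relative Ces1b stood at 199.6 to 271.5 against 55.0 to 153 and did not overlap either, and reads may be shared within this cluster. Of 18 iron genes 1 was higher, Hamp2, and without replicate 7 the transferrin gene Trf and the iron exporter Slc40a1 were lower, by log2 differences of -0.45 and -0.51. Wnt genes (22 tested), NRF2 targets (19), circadian clock genes (19) and T-box and SMYD family genes (11) had no member past the threshold in either fit. Of all 45 lists, 8 had a member past it with 13 libraries and 28 without replicate 7. Among all tested genes 0.299% passed with 13 libraries and 1.39% without replicate 7, and each list's count is to be read beside these shares.

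Markers of cells other than hepatocytes did not pass with 13 libraries in any list. In bulk liver RNA, fewer cells of a type and less RNA per cell cannot be told apart. Of 28 stellate cell and myofibroblast markers, all tested, Timp1 and Lum were lower in Tbx3 KO without replicate 7, and the summed FPKM of the list ran from 1850 to 4520 in Tbx3 KO and from 2440 to 5290 in Smyd2 KO. Its highest values were those of Tbx3 KO replicate 7 and Smyd2 KO replicate 6. Of 16 monocyte and neutrophil markers 10 were tested, Lyz2 and Csf3r were lower without replicate 7, and the sum ran from 169 to 1200 against 317 to 907, again with the 2 libraries at the top. Of 16 Kupffer cell markers 15 were tested, C6 (a complement gene that 2 other lists also hold) and Slc40a1 (an iron exporter that hepatocytes also express) were lower without replicate 7, and the sum ran from 1270 to 2880 against 1890 to 2630. Among all tested genes 0.816% were lower without replicate 7. No marker in these 3 lists was at 0 in all 13 libraries. The part of these cells in the differences of the 242 genes was not tested.

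Both libraries that stood apart shared a pattern across lists. Of 45 list levels, 11 were higher in each of them than in any of the other 11 libraries, and 7 were lower. Lists above were those of cell cycle, p53 targets, unfolded protein and integrated stress response, growth hormone axis, hepatokines, stellate cells, lipid-associated macrophages, monocytes and neutrophils, cholangiocytes, interferon-stimulated genes and chemokines. Not every member of these lists was high in both. Herpud1, of the stress response list, stood at 531 FPKM in Tbx3 KO replicate 7, against 619 to 806 in the other Tbx3 KO livers. In Smyd2 KO replicate 6 it stood at 472, against 452 to 610 in the other Smyd2 KO livers. Lists below were pericentral genes, fatty acid oxidation, bile acids, male-biased genes, major urinary proteins, erythroid cells and oxidative phosphorylation. Lpl, lipoprotein lipase, stood at 207 FPKM in Tbx3 KO replicate 7 and 235 in Smyd2 KO replicate 6. Gpnmb, a marker of lipid-laden macrophages, stood at 86.6 and 50.4 FPKM and Trem2, a receptor of the same cells, at 37.7 and 40.15. For these 3 genes the other Tbx3 KO livers reached at most 33.55, 9.74 and 8.69 FPKM and the other Smyd2 KO livers 73.5, 30.8 and 11.8. The third sgGFP control stood at 295, 47.9 and 32.6 FPKM. Not all markers of the lipid-associated macrophage list set both libraries apart in this way. Fabp5 stood at 123 and 73.1 FPKM in them, and at 199.8 in Tbx3 KO replicate 1 and 122 in Smyd2 KO replicate 5. Spp1 stood at 1695 and 1556 FPKM in them, and at 1892 in Smyd2 KO replicate 5. Mki67, a marker of dividing cells, stood at 213 and 275 FPKM, against at most 98.6 in the other Tbx3 KO livers, 85.5 in the other Smyd2 KO livers and 149 in the controls. Ccnb1, of the same cell cycle list but at very low values, stood at 0.69 and 5.98 FPKM in them. The other Tbx3 KO livers reached 1.10 for Ccnb1 and the other Smyd2 KO livers 1.36, so it did not set Tbx3 KO replicate 7 apart.

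**Figure D4:**
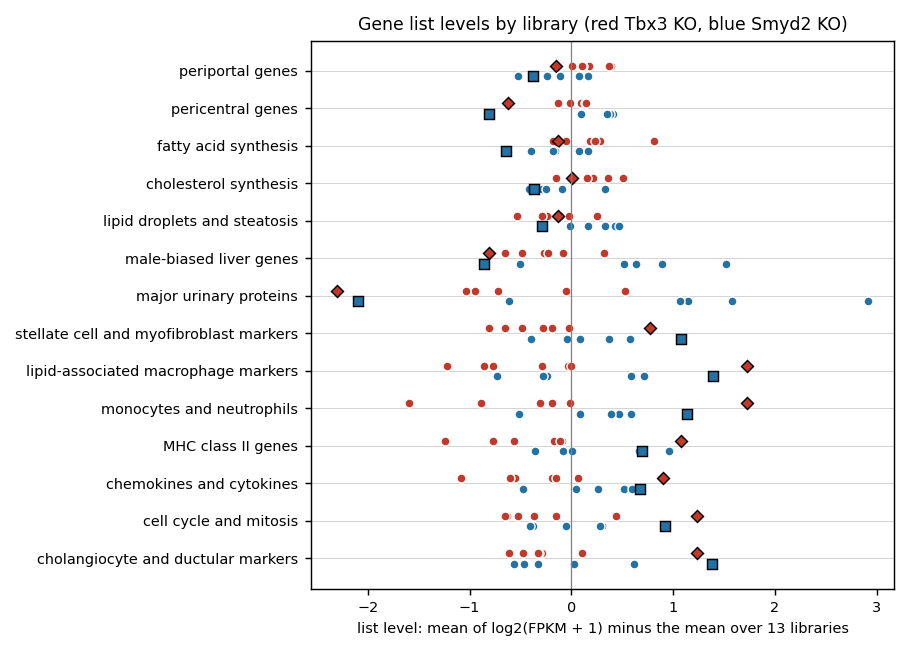
Level of 14 gene lists (rows) in each of the 13 libraries, as the mean of log2(FPKM + 1) over the list's genes, each centred on its mean in these libraries (x axis), in red for Tbx3 KO and blue for Smyd2 KO. The black-edged diamond (Tbx3 KO replicate 7) and square (Smyd2 KO replicate 6) lie to the right of the other libraries for cell cycle, stellate, macrophage, monocyte and cholangiocyte lists and to the left for pericentral, male-biased and major urinary protein lists.

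To see where each library lay on genes that it did not help to choose, it was left out, the test was run again, and the library was placed between the group means of the genes called (0 at the Smyd2 KO mean, 1 at the Tbx3 KO mean, on the log2 scale). Of the 242 genes called without Tbx3 KO replicate 7, that library lay nearer to Smyd2 KO in 170 and nearer to Tbx3 KO in 72, with a median position of 0.16. It lay past the Smyd2 KO mean in 89. The split was 67 of 100 genes for those higher and 103 of 142 for those lower in the other Tbx3 KO livers. Smyd2 KO replicate 6 lay nearer to Tbx3 KO in 89 of 143 genes called without it. The other 11 libraries lay nearer to their own group in 78.3% to 97.4% of the 28 to 47 genes called without each. Those smaller sets were called with both libraries that stood apart in the fit, so the shares are not taken over like sets of genes. Greb1, Ntrk2, Limch1, Igfbp2 and Cldn2 show replicate 7 inside the range of the other Tbx3 KO livers, at 26.1, 266, 121, 546 and 80.2 FPKM. For Sult1e1 and Serpina7 it lay outside that range but on the Tbx3 KO side of every Smyd2 KO liver, and for Cyp3a11 and Hamp2 it lay within the Smyd2 KO range.

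On the 52 genes the control livers lay mostly with Smyd2 KO. Each of the 6 was nearer to the Smyd2 KO mean in 39 to 46 genes, and their mean was nearer to it in 45. The mean of the controls lay nearer to Tbx3 KO in 3 of the 29 higher genes and 4 of the 23 lower ones. On the 242 genes called without replicate 7 the control mean was nearer to Smyd2 KO in 212. The controls did not enter the choice of these genes, and no test was made of the position.

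**Figure D5:**
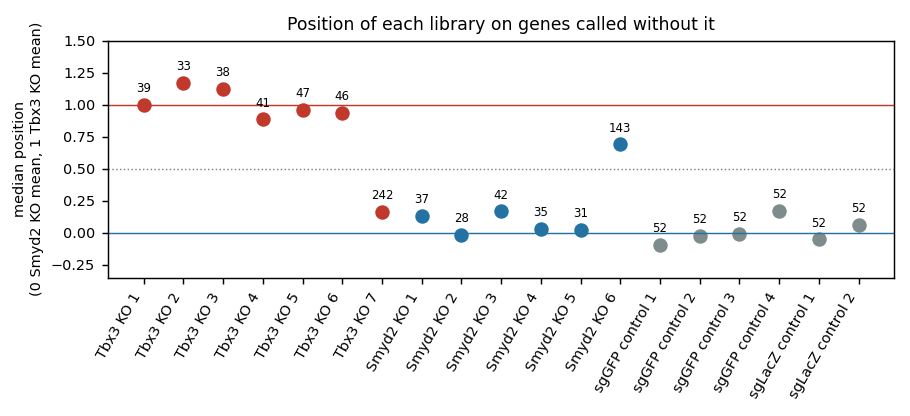
Median position of each library (y axis: 0 is the Smyd2 KO mean, 1 the Tbx3 KO mean) on genes called without it, with the number of genes above each point; control livers (grey) are placed on the 52 genes called with 13 libraries. Tbx3 KO replicate 7 lies at 0.16 and Smyd2 KO replicate 6 at 0.69, each nearer to the other group.

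When each of the 13 libraries was left out in turn, 24 of the 52 genes passed every time, 4 passed 12 times and 24 fewer than 12 times, and no difference changed sign. The 24 steady genes held Sult1e1, Greb1, Meg3, Limch1, Ntrk2, Igfbp2, Dntt and Olfm3 among the higher and Slc22a29, Serpina7, Adgrg2, Cyp2c38, Cyp2c67, Cldn2, Kbtbd11 and Tdrp among the lower ones. Psen2, the presenilin of intracellular gamma-secretase, was also steady, at 675 to 1031 FPKM against 448 to 543. Hamp2, Vldlr, Rcan2 and Ybx2 passed 4, 4, 4 and 5 times, Ftcd and Plin4 passed 3 times each, Cyp2f2 8 times, and Arg1 and Cyp3a11 11 times.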

How the data were processed

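RNA of 34 mouse livers was sequenced as total RNA, and the 13 Tbx3 KO and Smyd2 KO libraries were analysed here. The kit was a SMARTer stranded one for total RNA, per the labels' protocols. The authors deposited FPKM per gene symbol, with 1 column per liver. Counting used featureCounts 1.6.4, per the submitters' processing notes, which also name the builds mm10 and GRCh38 without their use. No source used here gives the aligner, annotation or strand setting. Depth was estimated from the steps between the low FPKM of single genes, and no count test was run.

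Genes that reached an FPKM of 1 in 5 or more of the 13 libraries were tested on log2(FPKM + 1), which understates the change of low genes, with limma 3.58.1 in R 4.3.3 (eBayes with an intensity trend, Benjamini-Hochberg over all tested genes, threshold 0.05, two-sided). The script was tested on simulated data. Groups came from the labels, which number the livers and do not say that each is a separate animal, so p-values measure the spread between these samples. Replicate numbers were not taken to pair livers (correlation of same-numbered deviations -0.13 to 0.11, above 0.1 in 1 of 6 pairs). The members, the 45 gene lists and the tests were chosen with earlier results of these data known. Named genes were both targets, the 10 highest and 10 lowest differences past the threshold in both fits with a mean FPKM of at least 5 in the higher group, the 6 smallest p in each direction, and up to 4 members per list. Further genes (such as Cps1, Glul, Lpl and Psen2) were named after their values were seen. A few genes within this rule are not reported here. Alternatives were other pseudocounts, filters, scalings, variance models, a fit of all 34 libraries, a replicate block and leaving out each library. Gene positions are from GENCODE M21 (GRCm38) and promoters from RefSeq.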

Additional observations from a re-analysis of the deposited data

Results flagged for a closer look

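The genes checked were those reported on above, the lists' named members and further genes such as Gckr, Scd1 and Cyp7a1. Their 7 Tbx3 KO and 6 Smyd2 KO values were checked for a library far from the rest of its group (Dixon's test at the 95% level on log2(FPKM + 1), 270 groups). A total of 26 were marked. Chance alone marks about 1 in 20 groups where genes are picked without regard to their values. Some genes here, such as Glul and Lpl, were named after their values were seen. The 26 can therefore not be set against that rate. Values are FPKM of the library marked, then the range of the others in its group.

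Tbx3 KO replicate 7 was marked most often. It was low for Ttr (8768 against 12030 to 13620), Sult1e1 (349.3 against 2072 to 3703), Ftcd (1037 against 1464 to 1769), Uqcrb (324.7 against 478.5 to 567) and Uroc1 (1342 against 1977 to 2440). It was low as well for the pericentral genes Glul (224.5 against 481.5 to 754) and Cyp2e1 (1374 against 3386 to 4576) and for the sugar and lipid genes Gckr (257.2 against 429 to 534), Khk (1496 against 2387 to 2834) and Scd1 (31610 against 50610 to 70700). It was high for Slc13a3 (26.67 against 8.08 to 12.4), Lpl (207.4 against 16.65 to 33.55), Serpina1e (305.7 against 23.6 to 47.1) and Lyz2 (757.4 against 118.6 to 174.5).

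Smyd2 KO replicate 6 was low for Vnn1 (196.6 against 378 to 491), Glul (247.6 against 684 to 789) and Cyp2e1 (1554 against 4369 to 6561), and high for Stat2 (254.1 against 168 to 195). Glul and Cyp2e1 were marked in both libraries.

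Other libraries were marked for 1 or 2 genes each. Tbx3 KO replicate 3 was at 0 for Adgrg2 (5.32 to 22.9 in the others). Tbx3 KO replicate 5 was low for Igtp (42.09 against 60.1 to 77.7) and Cyp7a1, the rate-limiting enzyme of bile acid synthesis (126 against 302 to 572). Tbx3 KO replicate 6 was high for Cfd (2.423 against 0 to 0.691). Smyd2 KO replicate 1 was low for Jchain (1.611 against 11.1 to 24.9) and Cidec (185 against 343 to 476), replicate 2 was high for Kbtbd11 (50.6 against 15.3 to 22.7), and replicate 5 was high for Sqle (29.38 against 6.54 to 8.22).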

How the results depend on the processing

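With 13 libraries, 44 genes passed with a pseudocount of 0.1, 42 without the filter, 58 with a filter at an FPKM of 5, 43 after median scaling, 56 after quantile normalization, 51 with robust eBayes and 40 without the intensity trend. All 34 libraries in 1 fit gave 184 (88 higher, 96 lower). Leaving out 1 library gave 28 (without Smyd2 KO replicate 2) to 242, with 16 to 100 higher and 11 to 142 lower. Counts moved by over 1.5 times without Tbx3 KO replicate 2 (33), Smyd2 KO replicate 2 (28), Smyd2 KO replicate 5 (31), Smyd2 KO replicate 6 (143) and Tbx3 KO replicate 7 (242). Without both Tbx3 KO replicate 7 and Smyd2 KO replicate 6, chosen after seeing the data, 399 passed (176 higher, 223 lower). In each of these settings the 52 genes kept the sign of their differences.

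Without Tbx3 KO replicate 7, 109 genes passed with no filter (52 higher, 57 lower), 113 without the trend (50 and 63) and 730 in the fit with all other libraries of the series (267 and 463). Median scaling gave 352 (248 higher, 104 lower). Leaving out a further library gave 88 to 691, with 44 to 274 higher and 41 to 417 lower; 691 was without Tbx3 KO replicate 6. The replicate block of the numbers 1 to 6, which leaves out Tbx3 KO replicate 7, gave 53 (25 higher, 28 lower), 30 of them among the 52. The cause of these changes was not tested. Tbx3 mRNA stayed at log2 differences of 0.04 to 0.47 and Smyd2 mRNA at 0.46 to 0.68 over the settings tried, neither past the threshold. At this depth, differences of genes near an FPKM of 1 have wide errors.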
